A study of Homo sapiens with 2 samples.

Results

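Kinesins are motor proteins that walk along microtubules or take them apart at their ends. A group of them builds the mitotic spindle, moves chromosomes and splits the dividing cell. Other kinesins carry vesicles, organelles and RNA through the cytoplasm, and a further group works at the primary cilium, the antenna through which Hedgehog signals reach the cell. The mitotic kinesins are made for cell division, whereas transport kinesins are used by dividing and resting cells alike.

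Kinesin transcripts were read in Ca9-22, an established oral squamous cell carcinoma (OSCC) cell line. The cells carried either a lentiviral vector with the long noncoding RNA DLEU1 or a control vector, and in both groups they had been kept for 2 weeks under the antibiotic blasticidin. There was 1 Agilent array per group, so no value has replicate error, no test was made, and all comparisons describe these 2 arrays. Members were the gene names formed by KIF, a number and optional letters, which gave 38 of the 43317 gene names on the array, read by 59 probes. KIFAP3 and antisense names were left out, and KIF4B and KIF28P had no probe under these names. Whether the selected cells were a pool or a clone is not given in the sources used here. All levels below are log2 processed signals minus the 75th percentile of the array, and a difference below 0 means a lower level with the DLEU1 vector. Levels of different probes cannot be set against each other, since probes differ in how well they bind.

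A total of 29 kinesins were detected on both arrays, 4 on 1 array and 5 on neither. The largest differences were those of kinesins that work in mitosis. Of the 29 kinesins detected on both arrays, 11 were at least 2-fold lower with the DLEU1 vector and 0 were at least 2-fold higher. Over all 20246 gene names detected on both arrays the shares were 9.78% lower and 9.18% higher (19% and 5.43% with spike-in scaling, 7.78% and 10.9% when scaled by the 75th percentile of probes detected on both arrays). The median difference was -0.45 over the kinesins and -0.07 over all gene names. The median was -2.56 for the 10 detected mitotic kinesins, all of which were at least 2-fold lower, and 0.09 for the 19 other detected kinesins, of which 1 (KIF24) was. The mitotic list was drawn up with these results known and leaves out KIF2A (-0.93), which also works at spindle poles, so the split between the groups depends in part on that choice. The last median was -0.025 when the arrays were scaled by their median and -0.25 when they were scaled by spike-in probes.

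The promoters of the kinesins were read for letters known from cell cycle genes, as a description with motifs chosen after the results were known. The CHR element (cell cycle genes homology region) is bound by MuvB complexes, which hold such genes down in resting cells and raise them towards mitosis, and CCAAT is bound by NF-Y, often a short way upstream. RefSeq promoters (build GRCh38.p14, 250 bases before to 50 bases after the annotated start) were listed for 32 of the 38 kinesins. CHR was searched as TTTGAA or TTCGAA and CCAAT as such, on both strands. CHR letters were found in 9 of the 11 kinesins that were at least 2-fold lower, in 1 of 14 with a promoter that were detected on both arrays and below 2-fold (KIF5B), and in 19.5% of all 27305 genes with a promoter. CCAAT was found in 9 of the 11, in 4 of the 14, and in 39.7% of all genes. The E2F letters TTTCCCGC, TTTCGCGC, TTTGCCGC or TTTGGCGC were found in 1 of the 11 (KIF15) and in 3.99% of all genes. A further 7 kinesins with a promoter were detected on 1 array or neither. Of these, 1 held CHR letters (KIF18B, a mitotic kinesin not called lower), 3 held CCAAT and 1 held E2F letters. These matches describe letters in a window, not bound sites.

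Stretches of 100 bases before the start are shown for 6 lower kinesins with CHR letters there, for KIF20A and KIF2C, which were lower without CHR letters in the window, and for KIF3B, a cilium kinesin, and KIF1C, a cargo transport kinesin, both below 2-fold. Capitals mark CHR, CCAAT or E2F letters on either strand (TTCAAA is TTTGAA and ATTGG is CCAAT read on the other strand). In KIF15 the E2F letters end where the CHR letters begin.
KIF11 (chr10:92593030-92593129, plus strand): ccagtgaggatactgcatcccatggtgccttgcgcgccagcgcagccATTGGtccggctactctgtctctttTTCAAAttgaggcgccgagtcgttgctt
KIF15 (chr3:44761694-44761793, plus strand): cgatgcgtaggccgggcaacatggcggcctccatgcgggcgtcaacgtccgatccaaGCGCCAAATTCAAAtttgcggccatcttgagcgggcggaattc
KIF18A (chr11:28108157-28108256, minus strand): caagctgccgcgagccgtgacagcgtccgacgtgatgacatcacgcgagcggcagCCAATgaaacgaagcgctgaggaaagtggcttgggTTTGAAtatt
KIF4A (chrX:70290004-70290103, plus strand): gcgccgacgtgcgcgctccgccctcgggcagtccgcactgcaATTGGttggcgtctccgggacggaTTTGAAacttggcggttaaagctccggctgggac
KIF22 (chr16:29790651-29790750, plus strand): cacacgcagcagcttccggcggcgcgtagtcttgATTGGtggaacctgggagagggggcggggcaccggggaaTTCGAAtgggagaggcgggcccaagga
KIF23 (chr15:69414249-69414348, plus strand): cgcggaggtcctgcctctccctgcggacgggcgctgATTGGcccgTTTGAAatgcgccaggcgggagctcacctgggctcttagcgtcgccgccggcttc
KIF20A (chr5:138179012-138179111, plus strand): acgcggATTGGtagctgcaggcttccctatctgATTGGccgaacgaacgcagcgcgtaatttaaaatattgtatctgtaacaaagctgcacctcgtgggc
KIF2C (chr1:44739737-44739836, plus strand): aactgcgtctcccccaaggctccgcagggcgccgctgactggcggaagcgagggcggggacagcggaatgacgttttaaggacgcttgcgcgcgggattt
KIF3B (chr20:32277551-32277650, plus strand): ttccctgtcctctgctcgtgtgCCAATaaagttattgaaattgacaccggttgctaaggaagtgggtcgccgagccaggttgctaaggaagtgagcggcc
KIF1C (chr17:4997850-4997949, plus strand): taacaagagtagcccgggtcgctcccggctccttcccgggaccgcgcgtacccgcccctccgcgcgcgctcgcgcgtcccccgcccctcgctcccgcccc

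The CHR letters began 28 bases before the start in KIF11, 35 in KIF15, 10 in KIF18A, 34 in KIF4A, 27 in KIF22 (before the more upstream of its 2 listed starts) and 55 in KIF23. In KIF14 and KIF24 they began 1 base after the start, and in KIF20B they occurred at 24 and 30 bases after it. In KIF11, KIF18A, KIF4A, KIF22 and KIF23 the CCAAT letters lay upstream of the CHR letters, from 66 bases before the start in KIF22 to 45 in KIF18A.

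**Figure D1:**
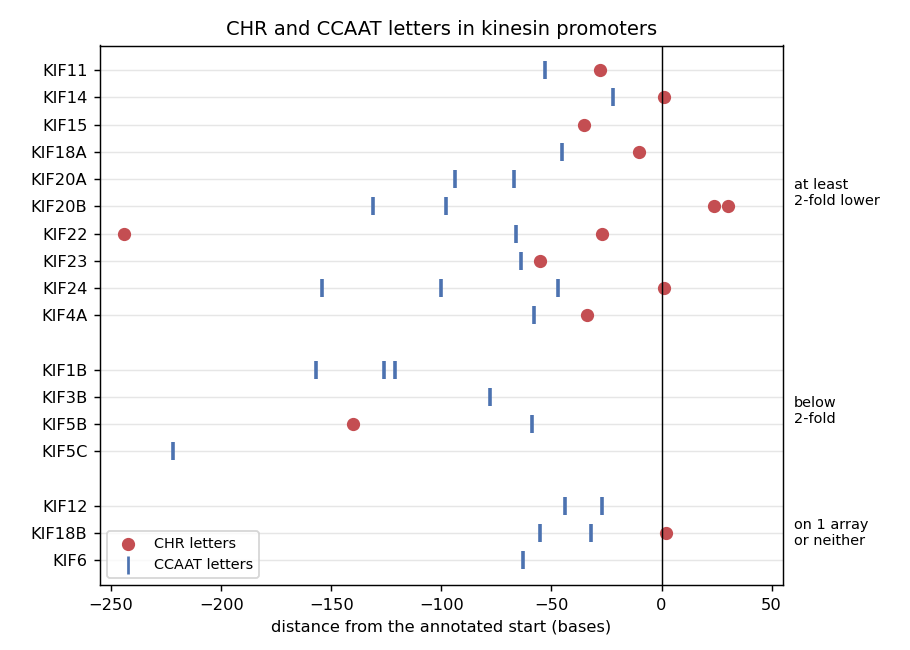
First base of CHR letters (circles) and CCAAT letters (bars) in the promoters of kinesins that hold either, by distance in bases from the annotated start, grouped by their difference between the arrays; the starts of a gene with several are drawn on 1 line. In each of the 9 kinesins with CHR letters that were at least 2-fold lower, such letters stand within 55 bases of a start, and KIF2C and the other kinesins without either motif are not drawn.

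As a check of the labels, DLEU1 itself was read. Its brightest probe (transcript NR_002605) read 3.17 under the control vector and 5.91 under the DLEU1 vector, which is higher by 2.74. Its other probes detected on both arrays (transcript NR_109974) were higher by 0.85 and 0.54, below 2-fold. All 6 squamous epithelial markers (KRT5, KRT14, KRT6A, TP63, CDH1 and SFN) were detected on both arrays, and their summed signal was 210023 and 441806, more with the DLEU1 vector. Of these, 4 were at least 2-fold higher, while SFN (signals of 153915 and 150111) differed by 0.0. A sum over probes is led by the brightest. Of 5 fibroblast markers 1 (COL1A1) was detected on both arrays and 1 (LUM) with the DLEU1 vector only, COL1A2, COL3A1 and DCN on neither, and the summed signal was 354 and 5276. Of 3 leukocyte markers with a probe, 2 were detected, PTPRC among them (summed signal 240 and 227), and of 4 endothelial markers, 2 (VWF and CDH5) were (111 and 652). The endothelial pair went opposite ways, VWF by 3.7 and CDH5 by -0.59. The part of these markers in the results was not tested.

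The error of a spot came from 282 probes spotted repeatedly. Between their spots the log2 difference had an SD of 0.080 in all, 0.058 where the signal was over 1000, 0.0981 between 100 and 1000 and 0.308 under 100 (5 probes only). Each kinesin probe had a single spot. Between different probes of a gene the SD of the difference was 0.47 over all genes with several. None of these values holds the variation between cultures.

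Spindle assembly depends first on motors that push its poles apart. KIF11 (Eg5), which slides antiparallel microtubules and is the target of spindle poisons such as monastrol, had levels of 3.08 (control vector) and 0.68 (DLEU1 vector). The difference was -2.40, or 5.28-fold lower, far outside the spot SD, which does not hold the variation between cultures. Its probe lies on chromosome 10 from 94414627 to 94414686 (probe positions are on hg19). KIF15, which shares the work of KIF11 in keeping the spindle bipolar, went from 1.91 to -1.20. The difference was -3.11 or 8.66-fold lower, the largest among kinesins detected on both arrays except with normexp background correction, where it was -2.52 and those of KIF23 and KIF2C (both -2.71) and KIF14 (-2.56) were larger. Without that correction 64 of the 20246 gene names were lower still.

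Chromosomes are attached and lined up by a further set of motors, whose transcripts were lower too. KIF2C (MCAK), which takes microtubules apart at centromeres to correct wrong attachments, had levels of 5.36 and 2.61, a difference of -2.76 or 6.75-fold. KIF18A, which damps the swinging of chromosomes at the metaphase plate, had levels of 1.41 and -1.04 and a difference of -2.45. The chromokinesin KIF22 (Kid), which pushes chromosome arms away from the poles, had levels of 3.55 and 1.42 and a difference of -2.13. KIF4A, a chromokinesin that also sets the length of the spindle midzone, had levels of 2.33 and -0.19 and a difference of -2.52. A near-identical gene copy, KIF4B, could share the KIF4A signal, which was not tested.

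Cytokinesis genes made up the rest of the mitotic group. KIF23 (MKLP1), the motor of the centralspindlin complex, had levels of 5.20 and 2.47 and a difference of -2.74 or 6.67-fold. Its other probe differed by -2.85, so the 2 probes of KIF23 lay close together. KIF20A (MKLP2), which brings the chromosomal passenger complex to the midzone, had levels of 2.66 and 0.06 and a difference of -2.60. KIF14, which works with citron kinase at the midbody, had levels of 2.70 and -0.14 and a difference of -2.83. KIF20B, a relative of KIF20A that acts late in cytokinesis, was the least different of these, with levels of 1.67 and 0.22 and a difference of -1.46.

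The remaining mitotic kinesins were dim. KIF18B, which shortens astral microtubules, was detected with the control vector only, at a level of -3.65, against -4.15 (not well above background) on the other array. The bound on its difference was 1.32-fold lower with the DLEU1 vector. Such a bound is set by whichever is higher on the dim array, the weakest detected level or that of the probe itself. The bound does not allow for spot error (SD 0.308 for signals under 100), so it is no firm minimum. KIF2B was detected on neither array.

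**Figure D2:**
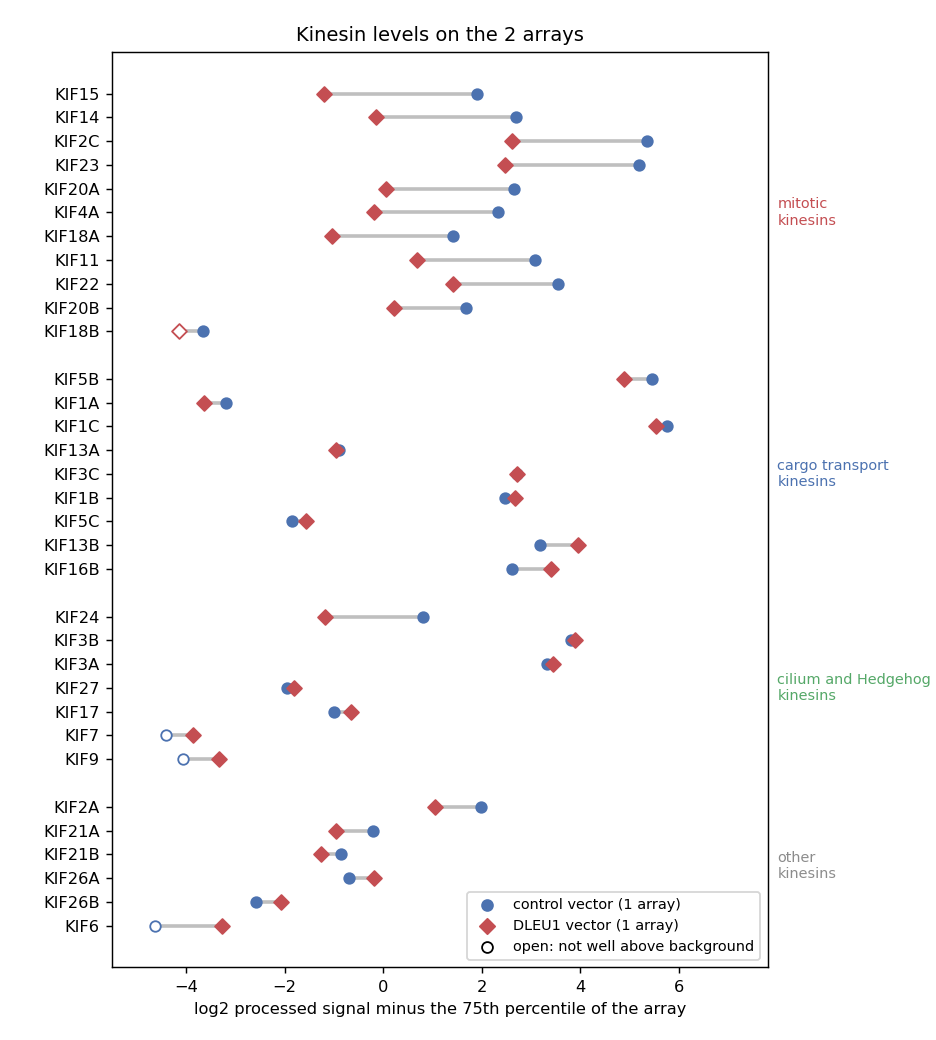
Level of each kinesin detected on at least 1 array, as log2 processed signal minus the 75th percentile of the array, with the control vector (circles) and the DLEU1 vector (diamonds), 1 array each; open symbols were not well above background. The 10 mitotic kinesins detected on both arrays and KIF24 lie well to the left with the DLEU1 vector, and most others have their points close together.

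Kinesins that carry cargo showed no such shift. Of 9 cargo transport kinesins detected on both arrays, 0 were 2-fold different in either direction, 4 differed downwards and 5 upwards, and the median was 0.01. Over all gene names 9.78% were at least 2-fold lower and 9.18% higher, so 0 of 9 is not far from those shares. KIF5B, the conventional kinesin heavy chain of most cells, had levels of 5.46 and 4.89 and a difference of -0.57. KIF1C, a motor of vesicles and messenger RNA, had levels of 5.76 and 5.54 and a difference of -0.22. KIF3C, which pairs with KIF3A or works alone, had a level of 2.71 on both arrays. The sign of 8 small differences (KIF13A, KIF1B, KIF1C, KIF27, KIF3A, KIF3B, KIF3C and KIF5C) turned under at least 1 other setting.

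Among the 29 kinesins detected on both arrays, the largest upward differences were in this group and were under 2-fold. KIF16B, which moves early endosomes outwards through its lipid-binding PX domain, had levels of 2.61 and 3.41, a difference of 0.81 or 1.75-fold. KIF13B (GAKIN), a motor of membrane proteins and scaffolds, had levels of 3.18 and 3.95 and a difference of 0.77. The other probe of each gene differed in the same direction and by less, by 0.38 for KIF16B and by 0.40 for KIF13B. KIF13A, KIF1A and KIF5C, the last pair best known from neurons, differed by -0.06, -0.45 and 0.28, the signals of KIF1A being 26.6 and 18.9 and so near background. KIF5A, a neuronal motor, was detected on neither array.

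Among the cilium kinesins detected on both arrays, KIF24 stood apart. Its difference lay within the range of the mitotic kinesins (-3.11 to -1.46). The cilium list, too, was drawn up with results of these data known. KIF24, which sits at the mother centriole, binds CP110 and keeps the cilium from growing in dividing cells, had levels of 0.81 and -1.19 and a difference of -2.00 or 4.0-fold. KIF3A and KIF3B, the paired motor that carries intraflagellar transport trains outwards, had differences of 0.12 and 0.09 from levels of 3.32 and 3.81 with the control vector. KIF17, a companion motor of these trains, differed by 0.35 and KIF27, a relative of the Hedgehog regulator KIF7, by 0.13. KIF7 and KIF9 were detected with the DLEU1 vector only, with bounds of 1.18-fold and 1.66-fold higher, and KIF19 on neither array. The KIF7 bound (0.24 on the log2 scale) was below the spot SD of 0.308 for signals under 100. Of 14 intraflagellar transport genes, the cargo trains of these motors, 13 were detected on both arrays. Of these, 0 were at least 2-fold lower and 1 at least 2-fold higher (IFT140, by 1.57), against 9.78% and 9.18% of all gene names. Their median was 0.12, which was -0.22 with spike-in scaling.

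Among kinesins with other or mixed roles, KIF2A came closest to 2-fold, and its call turned with the scaling. KIF2A, a depolymerase of spindle poles and also of neurites and cilia, had levels of 1.98 and 1.05 and a difference of -0.93, and no kinesin detected on both arrays lay between it and KIF20B (-1.46). It was past 2-fold with median scaling (-1.04) and spike-in scaling (-1.27). KIF21A and KIF21B, which damp microtubule growth, differed by -0.74 and -0.40, and KIF21A was past 2-fold with spike-in scaling (-1.08). KIF26A and KIF26B, which have lost ATP hydrolysis, each differed by 0.51. The KIF26B signals were dim (40.5 and 56.0). With normexp background correction KIF26B differed by 0.23 and KIF26A by 0.38. KIF6 was detected with the DLEU1 vector only, with a bound of 1.75-fold higher, and KIF12 and KIF25 were detected on neither array. Of the 4 kinesins detected on 1 array, 0 reached a bound of 2-fold, against 31.5% of the 2297 gene names detected on 1 array only.

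**Figure D3:**
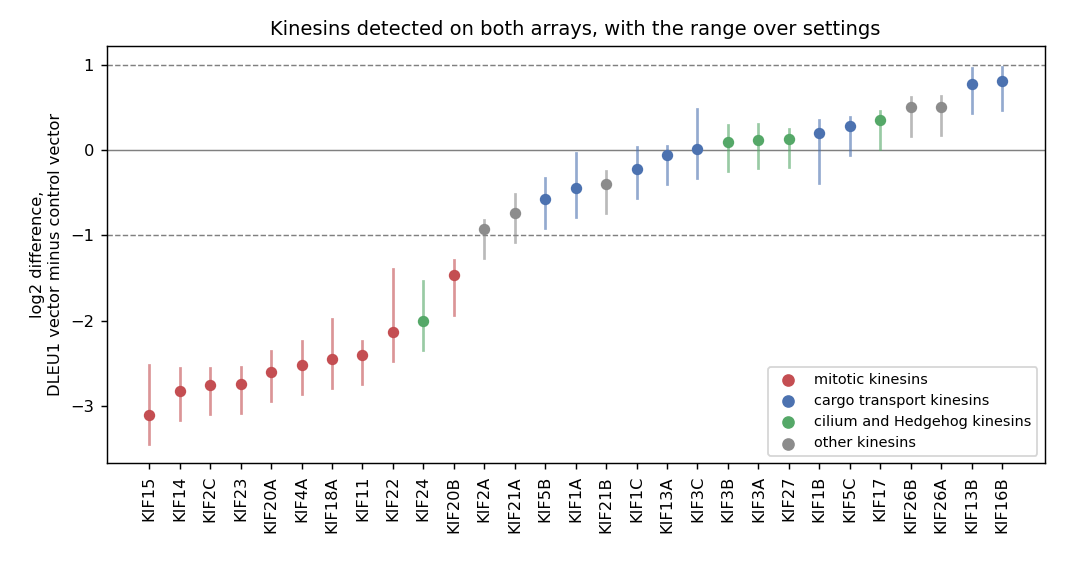
Log2 difference (DLEU1 vector minus control vector) of the 29 kinesins detected on both arrays, coloured by role, with vertical lines for the range over the scaling, background, filter and probe settings. The dashed lines mark 2-fold, and 11 kinesins stay below the lower one over their whole range, down to -3.45 for KIF15.

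Where a kinesin had several probes detected on both arrays, these were compared, since they read different stretches or transcripts. This was possible for 9 kinesins, and in 5 of them the probes lay within 0.5 of each other. KIF22 had the widest gap, 2.20. Its 2 bright probes differed by -2.13 and -2.14, whereas the dim probe A_33_P3350638, which reads transcript ENST00000563666 (chromosome 16, 29810045 to 29810104), had signals of 97.2 and 98.9 and a difference of 0.06. The bright probes are no independent measurements, as their sequences show. The letters in capitals are the 50 bases they share, and the second runs on across a gap in the genome, from 29815336 to 29816143.
A_33_P3350634 (chr16:29815326-29815385, hg19, plus strand): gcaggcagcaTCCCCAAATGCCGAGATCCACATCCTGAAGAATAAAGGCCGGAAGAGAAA
A_23_P54622 (chr16:29815336-29816143, hg19, plus strand): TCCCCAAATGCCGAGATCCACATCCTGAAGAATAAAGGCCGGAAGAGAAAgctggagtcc

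KIF1B, a motor of mitochondria and synaptic vesicle precursors, had probes of different transcripts. The probe of NM_015074 (chromosome 1, 10441250 to 10441309) had levels of 2.48 and 2.68 and a difference of 0.20. The probes of NM_183416, which lie upstream of it on the chromosome, had differences of -0.58 (10366262 to 10366321) and -0.80 (10368324 to 10368383). A dimmer probe of the same transcript (10364547 to 10364606) was detected with the control vector only, with a bound of 2.54-fold lower. The gaps between these probes can be set beside the SD of 0.47 between probes of a gene, and the NM_015074 probe was itself below 0 with spike-in scaling (-0.14).

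In KIF20B the probe of NM_016195 differed by -2.41 and that of NM_001284259, used for the gene, by -1.46. In KIF3C the brighter probe differed by 0.01 and the dimmer, with signals of 90.1 and 170.5, by 0.96. In KIF5B the dimmer probe differed by -1.03 and the brighter by -0.57.

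**Figure D4:**
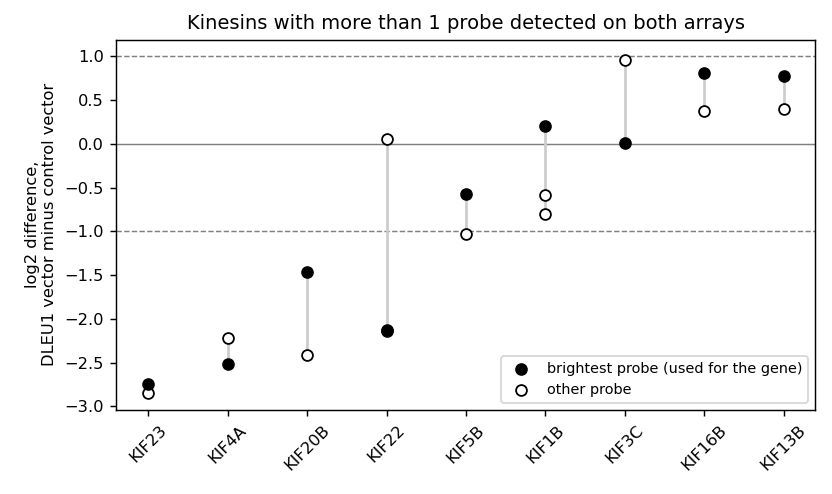
Log2 difference (DLEU1 vector minus control vector) of each probe of the 9 kinesins with more than 1 probe detected on both arrays; filled points are the brightest probe and open points the others. The 2 bright KIF22 probes (-2.13 and -2.14) coincide, while its dim probe lies at 0.06.

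Motors that the name rule left out were read beside these. CENPE, the kinetochore motor that brings late chromosomes to the plate, had levels of 3.12 and 0.62 and a difference of -2.5. KIFC1 (HSET), a minus-end motor that gathers spindle poles, had levels of 2.85 and 0.44 and a difference of -2.41. KIFC2 was higher by 1.27, and KIFC3 and STARD9 differed by 0.28 and 0.21. The KIFC3 probe lay in a strip of array columns. In that strip 22.9% of probes lit with the control vector were at least 2-fold lower, against 12% elsewhere.

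Transcripts of the partner proteins of mitotic kinesins were lower to a like degree. Of 15 such partners, all detected on both arrays, 13 were at least 2-fold lower and 0 higher, with a median of -2.35. Over all gene names detected on both arrays the shares were 9.78% lower and 9.18% higher. This list was chosen with results of these data known. RACGAP1, the partner of KIF23 in centralspindlin, went from 3.67 to 1.79 (-1.88), and ECT2, which centralspindlin recruits, from 2.16 to -0.27 (-2.43). PRC1, the bundler that recruits KIF4A, differed by -2.17, TPX2, which targets KIF15 to the spindle, by -2.59, and CIT, the citron kinase bound by KIF14, by -2.00. For the passenger complex that travels with KIF20A, the transcripts of all members were lower, AURKB (-2.80), BIRC5 (-2.76), CDCA8 (-2.73) and INCENP (-1.67). The probes of BIRC5 and INCENP lay in the same strip of array columns, and without them the list median was -2.35. CLASP1 (-0.38) and NUMA1 (-0.23) were the 2 partners below 2-fold.

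All 8 proliferation markers were lower as well. They were at least 2-fold lower, from MKI67 (-3.09) to PCNA (-1.95), with a median of -2.81. Over all gene names detected on both arrays 9.78% were at least 2-fold lower. The markers, too, were chosen with results of these data known. In bulk RNA, fewer dividing cells and less of these transcripts per dividing cell cannot be told apart.

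The adaptors of transport kinesins were spread around 0, like the motors. Of 18 detected on both arrays, 0 were at least 2-fold lower and 2 at least 2-fold higher, against 9.78% and 9.18% of all gene names. Their median of 0.09 was below 0 with median scaling (-0.027) and spike-in scaling (-0.25). The highest was MAPK8IP3 (JIP3), which links cargo to KIF5 motors and had levels of 5.01 and 6.56, a difference of 1.54. Among the kinesin light chains, which hold the cargo of KIF5B, KLC2 had the lowest difference (-0.82) and KLC4 the highest (0.84). The KLC4 signals were dim (32.0 and 55.8). KLC3 differed by 0.57 and KLC1 by 0.16. KIFAP3, the subunit that joins KIF3A and KIF3B to cargo, was higher by 0.80.

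**Figure D5:**
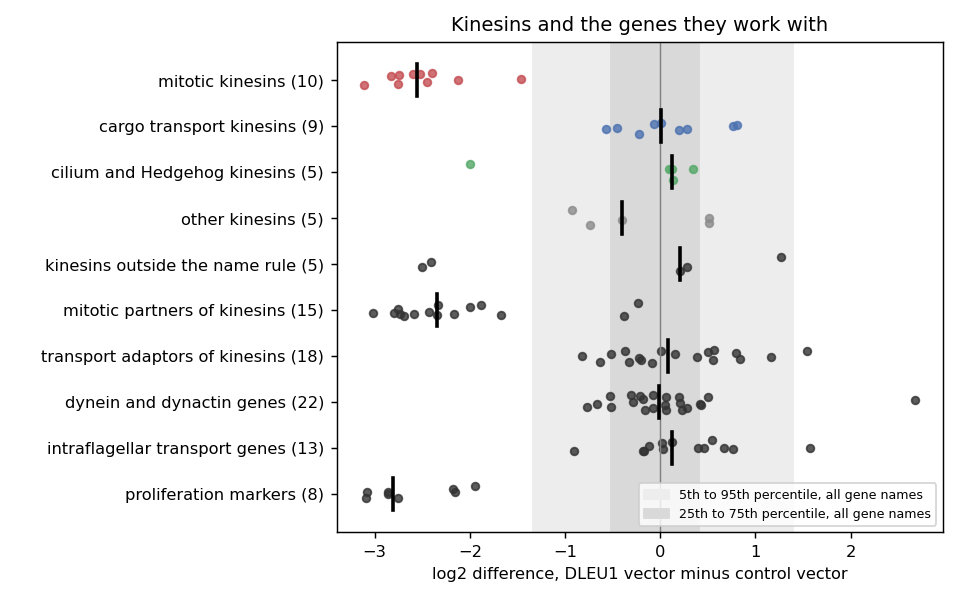
Log2 difference (DLEU1 vector minus control vector) of single genes (points) and the median (black bar) for each group of kinesins and of genes they work with, the number detected on both arrays in parentheses; shading gives percentiles of all 20246 gene names. Mitotic kinesins, most of their partners and the proliferation markers lie left of the 5th percentile (-1.34), and the transport groups lie around 0.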

How the data were processed

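Total RNA of Ca9-22 cells was hybridised to 1-colour Agilent arrays, 1 per vector. The deposited values were processed spot intensities (background-subtracted by Agilent Feature Extraction, version 10.7 per the labels), and the authors' series table held the same intensities rounded. Non-outlier spots of a probe were averaged on the log2 scale, and the 75th percentile over the probes of each array was then subtracted. A probe counted as detected where Agilent Feature Extraction marked most of its non-outlier spots as well above background. The brightest probe detected on both arrays stood for a gene. Kinesins were taken by name, and the kinesins, gene lists, motifs and the strip (columns 36 to 40) were chosen with earlier results of these data known. All kinesins are named, and of the other lists the extreme genes and those a kinesin binds, except that some genes are not reported here. With 1 array per group there was no test and no replicate error so that precision is limited by how few arrays there are. Detected were 47.6% (control vector) and 48.1% (DLEU1 vector) of 58201 probes, and 0 spots were saturated. Promoters came from a RefSeq table (GRCh38.p14), while probe positions are those of the files (hg19), whose exons were not annotated here. A total of 14 alternatives were run. Normexp, quantile normalization and loess were run with limma 3.58.1 (R 4.3.3) and the rest with Python 3.11.15. The scripts were tested on simulated data.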

Additional observations from a re-analysis of the deposited data

How the results depend on the processing

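The 11 kinesins named as at least 2-fold lower stayed so under each of the scaling, background, filter and probe settings, and their count was 10 (3-fold threshold) to 13 (spike-in scaling, 1.5-fold threshold). The count of higher kinesins was 1 with no filter on dim probes and 2 at 1.5-fold. Of 343 values of single kinesins under these settings, 203 stayed within the spot SD and 140 did not, and 14 values in 8 kinesins changed sign, none of them past 2-fold. Median scaling shifted all gene names by -0.11, the percentile of detected probes by 0.11, no filter by 0.11 and spike-in scaling (8 probes) by -0.34.

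Medians are given in the order all kinesins, mitotic, other kinesins, mitotic partners, transport adaptors, dynein and dynactin, intraflagellar transport and proliferation markers. Median scaling gave -0.56, -2.67, -0.025, -2.46, -0.027, -0.13, 0.0074 and -2.92. The 75th percentile of probes detected on both arrays gave -0.34, -2.45, 0.20, -2.23, 0.20, 0.095, 0.23 and -2.70. Spike-in scaling gave -0.79, -2.90, -0.25, -2.69, -0.25, -0.36, -0.22 and -3.15. Quantile normalization moved the last 5 lists to -2.18, 0.20, 0.076, 0.22 and -2.64, and loess to -2.16, 0.24, 0.10, 0.24 and -2.60, with mitotic kinesins at -2.47. Normexp background correction gave -0.24 for all kinesins, -2.29 for mitotic kinesins and -2.71 for proliferation markers. The median of all kinesins was -0.15 with no filter and -0.83 when signals had to reach 100 on each array. The mean of probes gave 0.00024 for dynein and dynactin and -2.61 for proliferation markers, and leaving out the strip gave 0.21 for intraflagellar transport. Beyond these construction differences, the cause was not tested.

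No paired analysis was possible because each group holds 1 array. Differences of dim kinesins, such as KIF1A, are limited by their signal over background.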

Other observations

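Dynein, the motor that walks the opposite way to most kinesins, was spread around 0. Of 22 dynein and dynactin genes, all detected on both arrays, 0 were at least 2-fold lower and 1 at least 2-fold higher. Over all gene names the shares were 9.78% and 9.18%. The median of these 22 was -0.02, which was above 0 under several scalings. The lowest was DYNLL2, a light chain, with levels of 3.75 and 2.99 and a difference of -0.77. The highest was DYNLRB2, with levels of -1.74 and 0.94 and a difference of 2.68, from a probe in the strip. DYNC1H1, the heavy chain, had levels of 5.95 and 5.42 and a difference of -0.53, also from a probe in the strip.

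Among intraflagellar transport genes IFT46 was the lowest, with levels of 3.34 and 2.44 and a difference of -0.91. The antisense RNA KIF9-AS1 was detected on both arrays, with signals of 135.9 and 123.9 and a difference of -0.10, while KIF25-AS1 was detected on neither.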
